A study of Drosophila melanogaster with 16 samples.

Results

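Wild-type larvae of one stock, reared on one food and collected on one morning, still differed widely between pools in a small set of genes. Canton-S, a common laboratory wild-type stock of *Drosophila melanogaster*, was measured in 5 pools of 10 whole larvae each. These pools are 5 of the 16 arrays of a microarray study of resistance to the mushroom toxin α-amanitin, and they were taken by their label, Canton-S on non-toxic food. The rest of the study holds Ama-KTT/M/2, a resistant stock, with and without α-amanitin in the food, and was not used here. The larvae were kept at 25°C and frozen late in the third instar, the last larval stage, while they were still feeding. They carried no transgene, their sex was not given, and they were drawn at random from tubes that had been started on several successive days. Each pool is a separate set of animals, numbered here as in the labels, and the numbers carry no order.

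Late in the third instar the larva builds up what it needs for metamorphosis. The salivary glands fill with glue proteins, which later fix the pupal case to a surface, and the fat body, the insect counterpart of liver and adipose tissue, fills with storage proteins. The steroid hormone ecdysone takes part in turning on both. The testis of a male larva already contains spermatocytes that transcribe the genes of sperm formation. The fat body and the blood cells can also release antimicrobial peptides, mainly through the Toll and Imd pathways.

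Expression was measured as intensity, the brightness of a probe set (a group of short probes for 1 transcript) after normalization between arrays. Of 18952 probe sets, 183 are controls and 18769 were used. The median intensity of an array lay between 62.4 and 69.9, and 19.7 to 22.1% of the probe sets of an array were under 16, a level treated here as a bound and not as a measurement. Across probe sets, 2 arrays correlated with r between 0.984 and 0.993 (10 pairs), and no pair was identical. The ratio of 3′ to 5′ signal of control genes, a measure of how intact the RNA and its copies were, was highest in pool 1 for 4 of 5 controls, at 1.48 to 4.55 in pool 1 and 1.37 to 3.98 in the other pools. Groups of genes whose pools stood in the order of such a ratio are named as such below. Its part in the results was not tested. Markers of salivary gland, fat body, midgut, muscle, nervous system and blood cells were above 16 in every pool, with the exception of *Sgs1*, *Sgs4* and *Fbp1*, which were under 16 in pool 4. Markers with no probe set named here were not read. Some were dim: *NimC1* of blood cells stood at 30.2, 26.9, 18.6, 18.3 and 32.6, and *nSyb* and *brp* of the nervous system averaged 39.6 and 43.2. Of 5 genes known from adult reproductive organs, *Acp26Aa*, of the male accessory gland, and *Yp1*, a yolk protein gene, were under 16 in all 5 pools, whereas *Cp36*, an eggshell protein gene, stood at 277, 263, 215, 249 and 258. *Yp2* and *Yp3*, 2 more yolk protein genes, were above 16 in every pool as well.

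Variation between pools was described as the SD of log2(intensity + 16) over the 5 pools, for the 9508 probe sets with a mean intensity of at least 64. The other 9261 probe sets were too dim and were left out. For most genes the pools were close. The median SD was 0.13 (quartiles 0.09 and 0.18), and the median ratio of the highest to the lowest pool was 1.24-fold. A probe set was counted as variable where its highest pool was at least 2-fold above its lowest on that scale, which held for 328 probe sets, 3.45% of those kept. Of these, 266 match 1 named gene, 20 match several, and 42 carry no name here. They make up 60.1% of the sum of squared deviations between pools over all probe sets kept, and the first 20 alone hold 27.0%. As the members were chosen for their spread, the values below are a description, with no test.

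**Figure D1:**
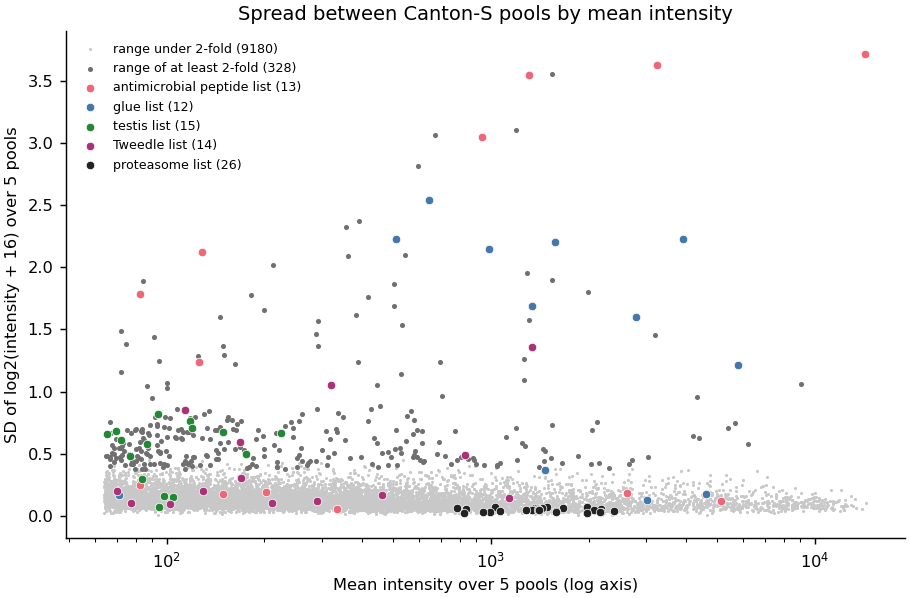
Each point is 1 probe set with a mean intensity of at least 64; the x axis is its mean intensity over 5 Canton-S pools on a log axis and the y axis the SD of log2(intensity + 16). Antimicrobial peptide and glue genes lie far above the cloud at up to 3.71, the variable testis genes form a band at 0.48 to 0.82 on the left, and the 26 proteasome genes lie at the bottom.

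Near the limit, *CG1213* (2.001-fold on that scale), *zye* (2.003-fold) and *CG3397* (2.005-fold) were just counted, and *CG14456* (1.9997-fold), *sbb* (1.997-fold) and *Mal-A6* (1.993-fold) were just left out. A brighter probe set of *sbb* ranged over 1.607-fold only. At the other end, 73 probe sets spanned at least 4-fold and 27 at least 16-fold. The extremes did not come from 1 pool. Among the variable probe sets, pool 4 was highest in 133 and lowest in 99, pool 1 was highest in 74 and lowest in 97, and pool 2 was highest in 76 and lowest in 23. Pool 5 was highest in 31 and lowest in 56, and pool 3 was highest in 14 and lowest in 53. The shares over all probe sets kept were different. Pool 1 was lowest in 29.6% of the variable probe sets and in 14.5% of those kept, pool 4 in 30.2% and 12.6%, pool 5 in 17.1% and 35.3%, pool 3 in 16.2% and 30.01%, and pool 2 in 7.01% and 7.59%. Pools 1 and 4 were highest in 22.6% and 40.5% of the variable probe sets, against 31.1% and 31.2% of those kept.

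Of the 42 gene lists examined, 5 with at least 3 genes stood at a median SD of 0.61 or more, against 0.13 over all 7570 genes kept. These were the Turandot stress peptides (1.76), the salivary gland glue genes (1.64), the antimicrobial peptides (1.24), the fat body storage list (1.06) and the testis genes (0.61). The fat body storage list held only *Fbp1*, *Fbp2* and *Lsp2*, and its median was the SD of *Fbp2*. *Lsp2*, the larval serum protein gene, had an SD of 0.21 and was not variable. Their variable members numbered 2 of 3, 8 of 12, 7 of 13, 2 of 3 and 11 of 15 genes kept, where 3.32% of all genes kept were variable. Some of these members passed the limit on the mean only through their brightest pools. *BomT2* and *BomS6*, antimicrobial peptide genes, were at most 31.2 outside pool 2, where they read 588 and 363. *TotC*, a Turandot gene, was under 16 outside pools 1 and 2. For such genes being kept already required a wide range, so these shares are partly set by the filter. At the low end of the median SD stood the proteasome (0.05, with 0 of 26 variable), the vacuolar ATPase (0.09, 0 of 22) and the respiratory chain (0.09, 1 of 61).

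**Figure D2:**
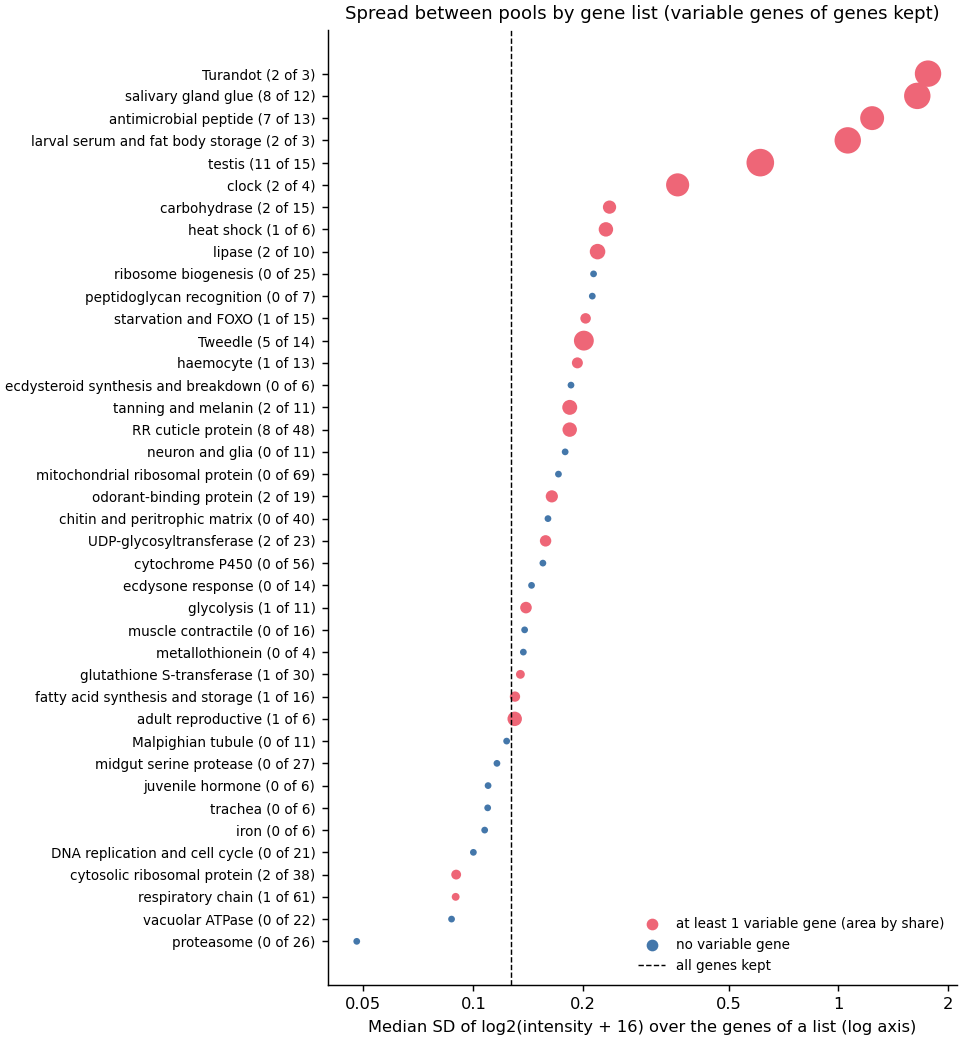
Each point is a gene list with at least 3 genes kept, placed by the median SD of log2(intensity + 16) of its genes (log axis), with variable genes of genes kept in brackets; the area of red points grows with the variable share. 6 lists stand right of 0.3, and the dashed line marks the median of all genes kept, 0.13.

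The widest differences were those of secreted immune peptides. *BomBc2* and the other *Bom* genes encode Bomanins, short peptides induced by the Toll pathway and needed for survival of many infections. *BomBc2* stood at 2867, 64055, 115, 138 and 3954 in pools 1 to 5, a range of 559-fold as deposited. The value in pool 2 was the brightest of its array, where the next probe set read 14982, and whether it lies in the linear range of the measurement is not known. *Drs*, which encodes the antifungal peptide Drosomycin, stood at 5738, 9791, 38.4, 29.5 and 637 (332-fold). *BomS2* stood at 335, 5837, under 16, under 16 and 398 (at least 365-fold). In all 3 genes pool 2 was highest, pools 1 and 5 were in between, and pools 3 and 4 were far lower.

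*BomS5* followed at 180.4, 4263, under 16, under 16 and 230.2 in pools 1 to 5 (at least 266-fold). *BomT2* at 29.7, 588, under 16, under 16 and 22.1 and *BomS6* at 31.2, 363, under 16, under 16 and under 16 had their only value above 100 in pool 2. *BomS4* differed from the others in that all pools but pool 2 were close together, at 64.8, 422, 36.1, 55.5 and 49.99. Those 7 genes are the variable ones among 13 antimicrobial peptide genes kept, and 8 more of the list were below a mean of 64. The mean of the 13 genes was 8.51, 10.32, 6.92, 6.999 and 8.23 in pools 1 to 5 on the log2 scale, so that pool 2 stood 10.6-fold above pool 3. Without pool 2 the list's mean spanned 1.74 log2 units in place of 3.40. The other 6 genes kept did not vary with them. *IM33* stood at 5173, 5808, 4924, 5141 and 4600.1, and *Drsl2*, a *Drs*-like gene, at 2556, 2718, 2793, 2986 and 2136. *AttD* (Attacin D), of the Imd pathway, stood at 55.9, 86.8, 91.8, 94.2 and 84.1. Of the dim genes, *DptB* (Diptericin B), another Imd target, stood at 46.9, 48.03, 49.6, 62.8 and 53.6, and *Mtk* (Metchnikowin) was raised in pool 4 alone, at 96.4, with values under 16 in the other 4.

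Grouped by the likeness of their values over the 5 pools (average linkage on 1 minus Pearson's r, at a height of 0.2, with groups of at least 5 genes), 213 of 251 variable genes fell into 8 groups. 6 of the 7 antimicrobial peptide genes were in one group of 35 genes, whose mean deviation in pools 1 to 5 was 0.56, 1.77, -1.07, -1.13 and -0.14 on the log2 scale, a 7.48-fold difference between pools 2 and 4. Grouped without pool 2, at most 3 of these peptide genes shared a group. It also held components of the Toll pathway. *SPE*, the protease that cleaves the ligand Spätzle, stood at 376, 836, 292, 268 and 411, and *Tl*, the Toll receptor itself, at 623, 826, 328, 345 and 489.5. *Bbd* (Bombardier), which in adult flies is needed for short Bomanins to act, stood at 532, 2003, 248, 215 and 480.1. In each, pool 2 was highest and pools 3 and 4 were the lowest pair. Of 14 Toll pathway genes, a list chosen after the values were seen, *SPE* and *Tl* were the variable ones (14.3%, where 3.32% of all genes kept were). In contrast, *spz*, which encodes Spätzle, was at 358, 449, 349, 333 and 346 and *cact*, the inhibitor, at 996, 1034, 900.1, 929.6 and 831.

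Nearest to the mean of that group, beside *Bbd*, were *CG43133* (225, 954, 78.6, 59.9 and 127), *CG43085* (1957, 2903, 491, 418 and 556) and *mthl2*, a *methuselah*-like receptor gene (135, 189, 46.03, 41.1 and 80.7). In *CG4716* pools 1 and 2 were alike and high and the other pools alike and low, at 2735, 3014, 206, 203 and 300.1. *CG33462* stood at 280.3, 1588, 28.3, 16.1 and 40.5 and *CG8160* at 1933, 5637, 312, 301 and 1775. *TotC*, a Turandot gene whose peptide is released by the fat body under stress, was above 16 in pools 1 and 2 only, at 165, 245, under 16, under 16 and under 16.

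Pool 2 stood alone in a second set of genes with defence roles. *PPO3*, the prophenoloxidase of lamellocytes, the flat blood cells that wall off parasites, stood at 29.6, 1667, 25.9, 31.3 and 33.9 in pools 1 to 5 (64.3-fold). *TotE* stood at 92.4, 1694, 78.4, 123 and 103 (21.6-fold). The other 4 pools lay close together in both, and neither gene joined a group. Of 8 lamellocyte genes, again a list chosen after the values were seen, *betaTub60D* at 549, 1007, 321, 333 and 337 and *ItgaPS5* at 80.5, 109, 46.9, 38.8 and 59.2 were also variable, and all 8 were highest in pool 2. Over all probe sets kept, pool 2 was highest in 24.2%. The list was chosen after these values were seen and includes *PPO3*. Its count is thus a description and cannot be tested against that share. *ItgaPS4* was too dim on average and stood at 32.1, 101, under 16, under 16 and under 16. *atilla*, a surface marker of lamellocytes, ranged over 1.48-fold, at 1016, 1097, 819.7, 739 and 741. Other blood cell genes differed among themselves. *Hml* (Hemolectin) stood at 1475, 1512, 1497, 1259 and 1370.3, *PPO1* at 2721, 3676, 3011, 2592 and 3029, and *He* (Hemese) was variable at 535, 689, 382, 324 and 476. In whole larvae, fewer cells of a type and less RNA per cell cannot be told apart, and this holds for every tissue below.

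**Figure D3:**
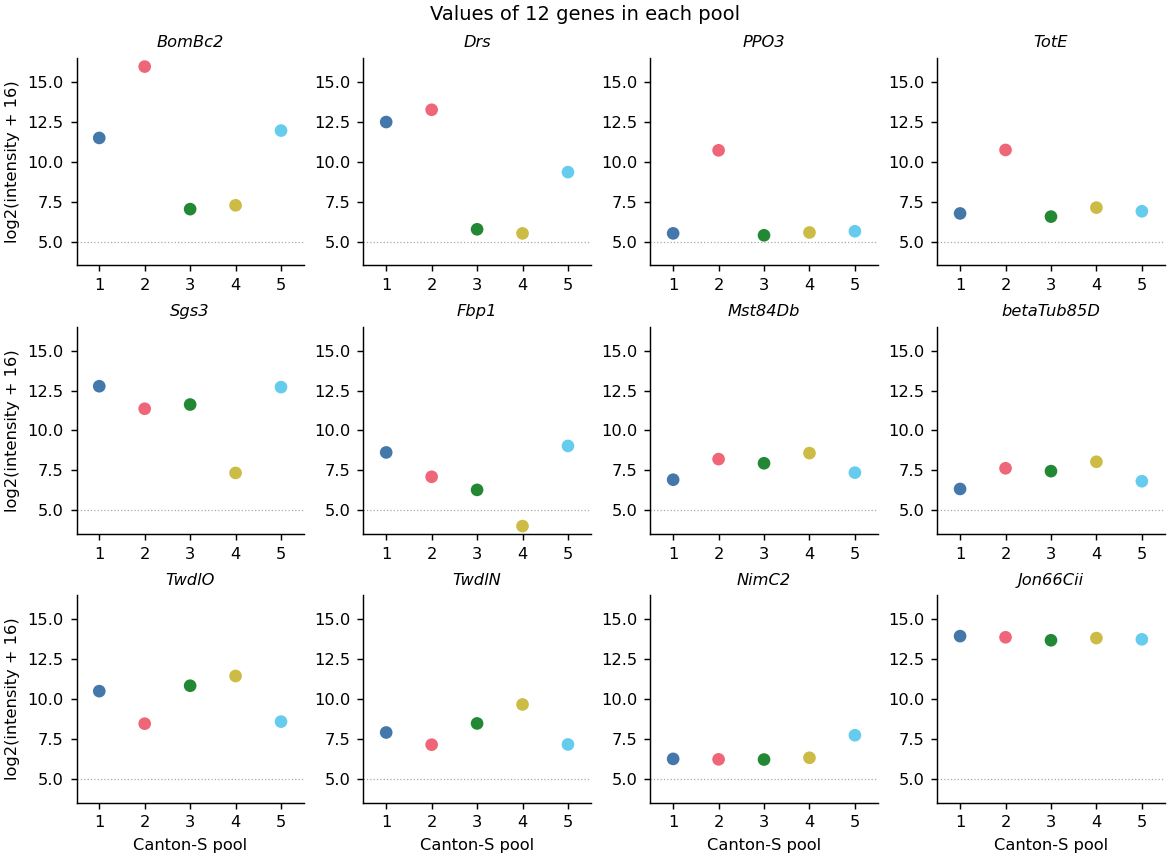
Each panel shows 1 gene, with the 5 Canton-S pools on the x axis and log2(intensity + 16) on the y axis, 1 point per pool; the dotted line marks an intensity of 16. Pool 2 stands highest for the first 4 genes, pool 4 is lowest for *Sgs3* and *Fbp1* and highest for the testis and Tweedle genes, pool 5 stands apart for *NimC2*, and the pools lie within 1.197-fold for *Jon66Cii*.

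Glue genes separated the pools along another axis. *Sgs3*, a major glue protein gene, stood at 6968, 2608, 3136, 145 and 6699 in pools 1 to 5 (47.97-fold). *Sgs1* stood at 1279, 278, 432, under 16 and 1226 (at least 79.9-fold), and *Sgs4* at 952, 321, 260.2, under 16 and 998 (at least 62.4-fold). Pools 1 and 5 were high and close to each other, pools 2 and 3 were in between, and pool 4 was by far the lowest.

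*Sgs5* stood at 2066, 932, 1121, 53.1 and 3697, *Sgs5bis* at 1740.2, 501, 776, 33.2 and 1893 and *Eig71Ee*, a glue gene of the ecdysone-induced cluster at 71E, at 1896, 615, 1549.8, 126 and 2488. *Sgs8* (4627, 1921, 2227, 303 and 4965) and *Sgs7* (8969, 5071, 4918, 1130.2 and 8852) spanned less, at 16.4-fold and 7.94-fold. The 8 genes were all in 1 group and the mean of the 12 glue genes was 10.91, 9.99, 10.29, 7.92 and 11.05 on the log2 scale, 8.78-fold higher in pool 5 than in pool 4. Without pool 4 the mean spanned 1.07 log2 units in place of 3.13. The 4 remaining members are *ng1* to *ng4*, glue genes of the 3C puff that the salivary gland expresses earlier in the third instar. None of them was variable, though *ng2*, at 1.991-fold, fell just short of the limit. *ng2* stood at 1053, 1341, 1544, 2112 and 1269.8 and *ng3* at 3948, 4503, 5180.2, 5192 and 4237, so that pool 4, lowest for every *Sgs* gene, was highest for both, and pool 1 was lowest. *ng1* was highest in pool 3 and lowest in pool 1, at 2622, 3155, 3328, 3129 and 2964, and *ng4* was highest in pool 4 and lowest in pool 2, at 72.5, 60.8, 73.7, 86.3 and 61.96.

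Both variable genes of the fat body storage list, *Fbp1* and *Fbp2*, lay in the same group as the glue genes. *Fbp1*, the receptor that takes storage proteins back into the fat body, stood at 377, 120.4, 61.2, under 16 and 505 (at least 31.6-fold). *Fbp2*, another fat body protein gene, stood at 14596, 11912, 4289, 2764 and 11795 (5.28-fold). *Lsp2*, the larval serum protein gene, had the same order of pools as *Fbp2*, yet over 1.39-fold only, at 13804, 12945, 10571, 9962 and 12914. The 3′ to 5′ ratio of the second *GAPDH* control, at 4.04, 3.74, 3.42, 3.38 and 3.74 in pools 1 to 5, had that order too, with pools 2 and 5 nearly equal. *Yp3*, a yolk protein gene known from adult females, ran with them at 309, 69.99, 40.8, 21.5 and 183, while *Yp2* was dim, at 58.1, 48.9, 60.8, 49.1 and 83.8.

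The group held 51 genes, with mean deviations of 0.84, 0.14, -0.25, -1.52 and 0.79 in pools 1 to 5, a 5.11-fold difference between pools 1 and 4. The pools stood in the same order in the 3′ to 5′ ratio of the *Act5C* control, which was 3.08, 2.47, 2.38, 2.28 and 2.69. The group included regulators. *sage*, a transcription factor gene of the salivary gland, stood at 461, 224, 151, 113 and 329, *vri*, which encodes the bZIP repressor Vrille, at 227, 154, 101, 54.7 and 190.3, and *Kr* (Krüppel) at 1434, 1237, 969, 653 and 1054. Pool 4 was the lowest and pool 1 the highest in each. It also included genes of the cuticle and of pigment. *Cpr78E* stood at 402, 263, 122, 40.7 and 1088, *Cpr65Av* at 2232, 1552, 862, 776 and 2294, *Cpr49Ac* at 1551, 1165, 798, 548 and 1520.3 and *yellow-d2*, of the yellow family, at 512, 375, 225, 131 and 509.8. Among genes without a textbook role, *CG4168* (727, 452, 272, 156 and 658), *CG17105* (7191, 5154, 2451, 1423 and 5338) and *CG12715* (731, 299, 219.9, 72.2 and 616) lay close to the group's mean, and *CG7606* (2626, 931, 1246, 94.8 and 2823) and *CG15404* (801, 252, 387, 24.1 and 1049) spanned 29.8-fold and 43.4-fold, more than *Sgs8* and *Sgs7*. The ecdysone response list itself had 0 of 14 genes variable, beside 3.32% of all genes kept. Its mean was 8.65, 8.63, 8.44, 8.50 and 8.57.

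The largest group held 63 genes that differed moderately but in close parallel, among them 11 of the testis list. *Mst84Db*, a sperm tail protein gene, stood at 104, 278, 229, 366 and 147 in pools 1 to 5 (3.51-fold). *betaTub85D*, the β-tubulin gene of the male germline, stood at 64.4, 181, 158, 246 and 96.5 (3.82-fold). *Mst77F*, whose product packs sperm chromatin, stood at 146, 369, 316, 515 and 199 (3.53-fold). Each was highest in pool 4, then in pools 2, 3 and 5, and lowest in pool 1.

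The same order held for the group's mean, at -0.72, 0.36, 0.08, 0.74 and -0.46 in pools 1 to 5 (2.76-fold). All 11 variable genes of the testis list were in it, out of 15 kept and 42 on the array, and at most 7 shared a group when the genes were grouped without pool 4. Of the 11, *S-Lap8* (28.3, 132, 86.3, 168 and 55.9), a sperm leucyl aminopeptidase gene, *ocn* (ocnus, 44.1, 158, 107, 209 and 71.1) and *Mst84Dc* (48.6, 144, 123, 208 and 74.03) had the largest SD, at 0.82, 0.76 and 0.71. *dj* and *aly*, a sperm tail gene and a regulator of the spermatocyte programme, were too dim to be kept, at under 16, 28.5, 23.5, 40.3 and under 16 for *dj* and values of at most 24.7 for *aly*. Genes nearest to the group's mean were *Mst84Da* (32.6, 92.8, 69.5, 121 and 44.2), *S-Lap7* (41.9, 110.2, 83.6, 141 and 58.2), *CG31820* (53.3, 143, 113, 178 and 69.5) and *eIF4E3* (54.3, 129, 119.99, 184 and 65.9), which encodes a translation initiation factor of spermatocytes.

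Several members are germline copies of genes that every cell uses. *RpL22-like* stood at 143, 299.9, 238, 422 and 102 and *RpS19b* at 107, 189, 178, 273 and 68.9, and they were the variable ones among 38 genes of the cytosolic ribosome, a list with a median SD of 0.09. *ATPsynGL*, a copy of an ATP synthase subunit gene, stood at 45.1, 100.3, 72.3, 103 and 42.7 and was the variable one of 61 respiratory chain genes. The variable shares of these 2 lists were 5.26% and 1.64%, against 3.32% of all genes kept. *TrxT*, a thioredoxin gene of the testis, stood at 42.6, 152, 112, 214 and 68.6. In *RpL22-like*, *RpS19b* and *ATPsynGL*, pool 5 and not pool 1 was lowest.

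**Figure D4:**
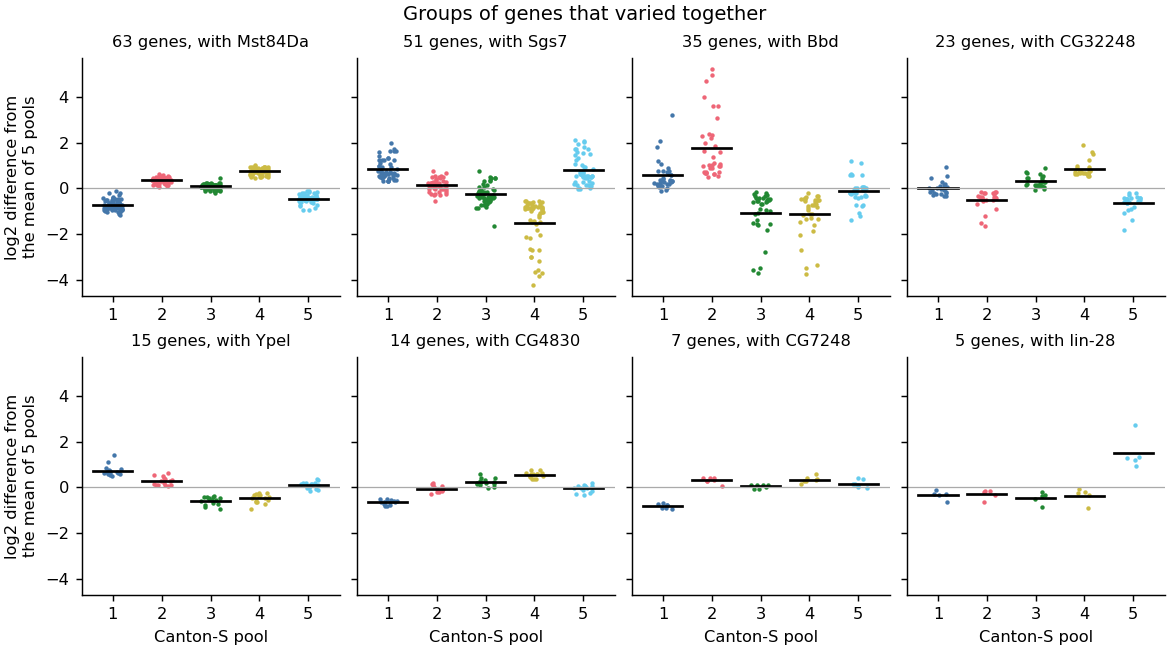
Each panel is a group of variable genes, 1 point per gene and pool, as the log2 difference from the gene's mean over the 5 Canton-S pools (y axis); bars mark the group's mean. The panels hold 63, 51, 35, 23, 15, 14, 7 and 5 genes. The genes of the group with *Mst84Da* are tightly bunched, while the groups with *Sgs7* and *Bbd* spread far more widely.

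Most variable cuticle genes lay in 2 groups with different orders. The Tweedle genes encode structural proteins of the larval cuticle. Of the 14 kept, 5 were variable (35.7%, against 3.32% of all genes kept), and the list's median SD was 0.20. *TwdlO* stood at 1427, 335, 1811, 2774 and 368 in pools 1 to 5 (8.27-fold), *TwdlN* at 223, 125, 339, 794 and 126 (6.35-fold) and *Twdlalpha* at 192, 118, 178, 269.5 and 82.4 (3.27-fold). Pool 4 was highest in all 3 genes, and pools 2 and 5 were the low pair.

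They lay in a group of 23 genes with mean deviations of 0.01, -0.53, 0.31, 0.85 and -0.64 (2.81-fold). *Lcp65Af*, a larval cuticle protein gene, stood at 1407, 430.5, 1600.2, 2403 and 468, *Cpr49Ad* at 147, 154, 209, 355 and 134 and *Cpr31A* at 207, 188, 230.2, 334 and 136. *CG10598* had the widest range there, at 245, 28.1, 207, 496 and 22.5 (22.1-fold). *Hex-C*, a hexokinase gene of the fat body, ran with them at 71.04, 78.1, 127, 142 and 49.9, as did *Obp83cd* at 197, 167, 361, 388 and 182. Of 48 kept genes of cuticle proteins with the Rebers-Riddiford motif, 8 were variable. 4 of them, *Lcp65Af*, *Cpr49Ad*, *Cpr31A* and *Cpr56F*, were in this group. The other 4, *Cpr78E*, *Cpr65Av*, *Cpr49Ac* and *Cpr65Aw*, were in the group of the glue genes, where pool 4 was lowest. The neighbours *Cpr49Ac* and *Cpr49Ad* thus stood in opposite order in pools 1 and 4. *TwdlK* stood outside, with pool 2 alone low, at 100.5, 26, 137, 140.03 and 165, and *TwdlP* was in a smaller group at 503, 704, 1214, 1029 and 723.

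**Figure D5:**
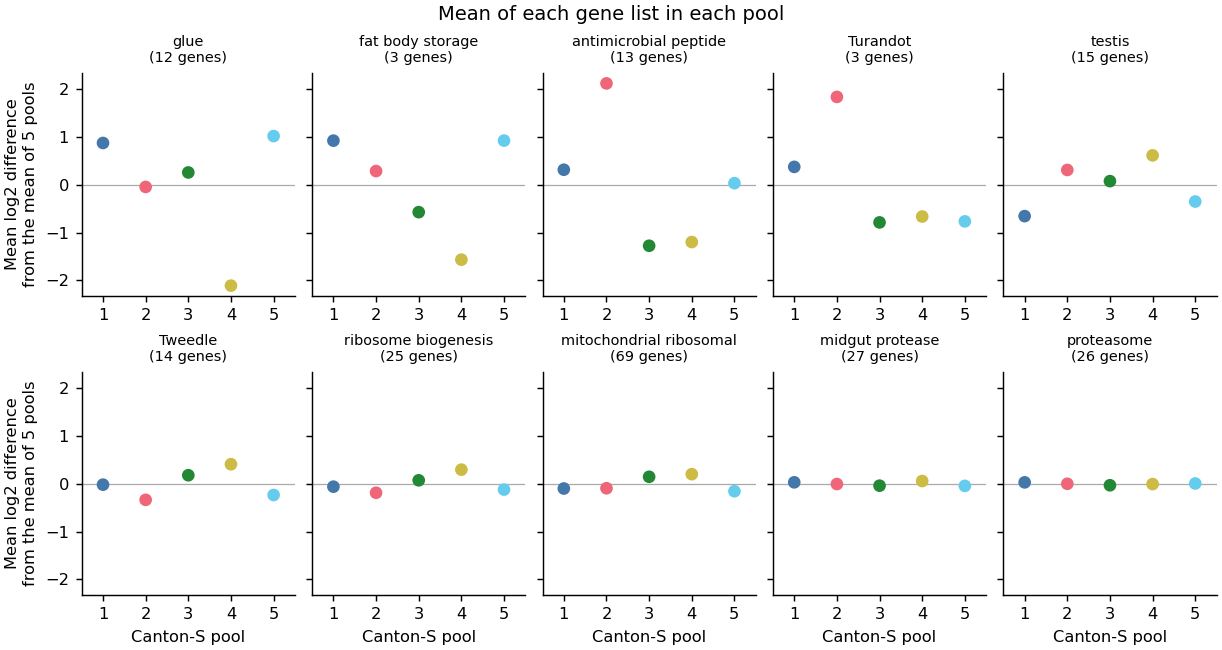
Mean of the kept genes of each list in each of the 5 Canton-S pools (x axis), as the log2 difference from the list's mean over the pools (y axis). Glue and storage genes are lowest and testis and Tweedle genes highest in pool 4, antimicrobial peptides and Turandot genes are highest in pool 2, and the proteasome list lies within 0.06 over the 5 pools.

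The lists of mitochondrial ribosomal proteins and of ribosome biogenesis had no variable member, yet their median SD was above the 0.13 of all genes kept. The 69 mitochondrial ribosomal protein genes had 0 variable members and a median SD of 0.17, with means of 8.90, 8.91, 9.15, 9.20 and 8.85 in pools 1 to 5, so pools 3 and 4 stood above the others, as they also did with the arrays scaled to 1 median or quantile normalized again. The 25 ribosome biogenesis genes, also with 0 variable, had a median SD of 0.21. Their means were 8.44, 8.31, 8.57, 8.79 and 8.38, 1.399-fold higher in pool 4 than in pool 2. The mean over all 7570 genes kept moved by 0.13 between pools 2 and 5. The mean of the mitochondrial ribosomal list spanned 0.36 and that of the biogenesis list 0.48.

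The 4 smaller groups had between 5 and 15 genes. One of 15 genes had pool 1 highest and pools 3 and 4 lowest, with mean deviations of 0.73, 0.26, -0.59, -0.49 and 0.09. The 3′ to 5′ ratios of the actin control (2.12, 1.94, 1.74, 1.76 and 1.92) and of the *eIF-4a* control (4.55, 3.98, 3.60, 3.63 and 3.79) had the same order of pools. The group held *Sirup* (1579.8, 702, 313, 297 and 636), *FASN3*, a fatty acid synthase gene of the oenocytes (858, 802, 264, 309 and 670), and *BNIP3*, a mitophagy receptor gene (1239, 1009, 416, 453 and 761). *Ypel* (255, 206, 113, 100.3 and 189.5) and *croc*, a forkhead factor gene (209, 135, 84.2, 90.4 and 147), were nearest to its mean. A group of 14 genes had the reverse, with pool 4 highest and pool 1 lowest, at -0.65, -0.07, 0.23, 0.55 and -0.06, which is the reverse of the pool order of the ratio of the second *GAPDH* control. It held *Mrp5*, an ABC transporter gene (152, 272, 351, 435 and 295), and *CG4830* (1319, 1948, 2371, 2973 and 2154). 9 of these 14 genes lie on chromosome arm 3R, as do 1892 of 7548 placed genes kept.

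In 7 genes pool 1 alone was low. *Clk*, which encodes the circadian activator Clock, stood at 59.8, 157, 125, 145 and 116 in pools 1 to 5. *NLaz*, a lipocalin gene, stood at 327, 681, 617, 971 and 864, and *Mal-A8*, a maltase gene, at 49.9, 116, 98.01, 122 and 88.5. *vri*, whose product represses *Clk* in the adult clock, was highest in pool 1, and a link between the values of these genes was not tested. *vri* and *Clk* were the variable genes among 4 clock genes kept, where 3.32% of all genes kept were variable.

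Pool 5 alone was high in a group of 5 genes. *CG33333* stood at 232, 176, 149.9, 144 and 1951 (13.6-fold), *lin-28*, an RNA-binding protein gene, at 56, 65.5, 54.4, 55.9 and 210.1, and *NimC2*, a Nimrod receptor gene of blood cells, at 60.02, 58.5, 57.9, 63.8 and 196. *apn* (30.4, 47.5, 46.8, 45.1 and 164) and *LysX*, a lysozyme gene (136, 131, 101, 143 and 298), completed it. *SuUR*, which suppresses replication of heterochromatin in polytene chromosomes, was the reverse, with pool 5 alone low, at 124, 126, 94.6, 144 and under 16. *GstE1*, a glutathione S-transferase gene, was high in pool 1 alone, at 301, 102, 84.4, 93.5 and 83.9. It was the variable one among 30 *Gst* genes kept, a share of 3.33% beside 3.32% of all genes kept. *Galphaq*, a G protein subunit gene, was low in pool 2 alone, at 714, 312, 625, 648 and 664.

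Some variable genes lay side by side. In the gene order of the Release 6 assembly, with only kept genes counted, 31 of 7542 neighbouring pairs had both genes variable, 15 of them in the same group. Of the 7548 placed genes kept, 249 were variable, and 53 of these had a variable neighbour. Over all genes kept, 3.32% were variable. How many such pairs a random placement would give was not tested. *BomS4*, *BomBc2*, *BomS2*, *BomT2*, *BomS5* and *BomS6* stood in a row on arm 2R. *Sgs8* and *Sgs7* were neighbours on 3L, *Sgs5bis*, *Sgs5* and *CG7606* on 3R, *Mst84Dc*, *Mst84Db* and *Mst84Da* on 3R, and *TwdlO*, *TwdlK* and *TwdlN* on 3R. Such neighbours are often copies of one another, and 26 of the 266 variable probe sets with 1 gene have probes that other transcripts may share. By arm, 3.48% of kept genes were variable on 2L, 3.94% on 2R, 3.67% on 3L, 3.49% on 3R and 1.60% on X, where 19 of 1188 were. None of 44 was variable on chromosome 4. Of the 63 genes in the group with the testis genes, 4 were on X, as are 1188 of 7548 placed genes kept.

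Among the 100 brightest probe sets, 58 with 1 named gene, the pools were within 2-fold with 1 exception. Intensity depends on a probe set's own probes, so no order of transcript abundance is read from it. The 100 brightest had means of at least 9140.4, and *BomBc2* was the variable one among them. Their median SD was 0.09, and they took in 10 genes of the cytosolic ribosome, 7 of midgut serine proteases, 4 of the respiratory chain and 3 of muscle contraction. Over all 7570 genes kept, these lists held 38, 27, 61 and 16 genes.

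*Jon66Cii*, a midgut serine protease gene, averaged 14418 ± 1025 (SD, n = 5 for this and the following values) and ranged over 1.197-fold. Its SD on the log2 scale was 0.10 as deposited and 0.45 after a second quantile normalization. That step gives the top rank of each array the mean of the arrays' highest values, which include 64055 for *BomBc2* in pool 2. *Jon66Cii* held the top rank in pools 1, 4 and 5 and not in pools 2 and 3. *Jon25Biii* averaged 12412 ± 773, *betaTry*, a trypsin gene, 12307 ± 381, and *Jon65Aiv* 11971 ± 332. All 27 midgut protease genes stayed under 2-fold. *Obp99b*, an odorant-binding protein gene, averaged 12891 ± 751, and *Nplp2*, a neuropeptide-like precursor gene, 12509 ± 758. For translation, *RpL41* averaged 12418 ± 1104, *RpLP1* 11398 ± 796 and *RpS18* 11330.5 ± 390.5. *Acbp6*, an acyl-CoA-binding protein gene, averaged 12333 ± 659, *fabp*, a fatty acid binding protein gene, 11342 ± 931, *apolpp*, which encodes the main lipid carrier of the haemolymph, 11789.7 ± 949, and *FASN1*, a fatty acid synthase gene, 10867 ± 829.5. *Argk1*, an arginine kinase gene that buffers ATP in muscle, averaged 11189 ± 470.1, and *blw*, an ATP synthase subunit gene, 10738 ± 975. On the log2 scale, *CG31789*, of no textbook role, at 8991, 12448, 10719, 12903 and 10824, and *Lsp2* had the largest SD after *BomBc2* among the 25 named genes of this kind, at 0.21 each.

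The 10 steadiest probe sets with a named gene had nearly the same value in every pool. *Moe*, which encodes Moesin, a link between actin and the membrane, stood at 4681, 4673, 4663, 4606 and 4631 in pools 1 to 5. Both subunits of actin capping protein were among the 10 steadiest named genes, with *cpb* at 990.3, 988, 985, 973 and 975 and *cpa* at 1353, 1375, 1369.7, 1372 and 1389. *eIF5*, an initiation factor gene, stood at 1574, 1605, 1604, 1603 and 1592, and *AP-2sigma*, a clathrin adaptor subunit gene, at 704, 695, 706, 691 and 695. *mam*, a Notch coactivator gene, was among them with 1 probe set, at 95.0, 94.4, 93.3, 93.8 and 93.9, while its brighter probe set stood at 104, 96.1, 99.5, 119 and 118. The SD of the 10 probe sets lay between 0.0082 and 0.017 on the log2 scale. These small values depended on the scaling: with the arrays brought to 1 median, a shift of up to 0.16 log2 units between arrays, the SD of *Moe* was 0.074 and that of *eIF5* was 0.068. Likewise the mean of the 26 proteasome genes spanned 0.06 as deposited and 0.18 with that scaling.

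Other probe sets of the same genes, which the choice did not use, gave a second reading of the same RNA. For 7 variable genes another probe set was kept. In 6 of them the highest pool was the same, and in 3 the second probe set was variable as well. In 2 of them the lowest pool was the same, and the median range was 1.76 log2 units with the brighter probe sets and 0.71 with the others. For *CG4168* it read 687, 443, 248, 154 and 598 in pools 1 to 5, beside 727, 452, 272, 156 and 658 with the brighter one. For *CG4716* it read 389, 434, 26.7, 27.6 and 33.9, again with pools 1 and 2 high. For *exu*, which localises RNA in the germline, the brighter probe set stood at 75.7, 212, 179, 295 and 84.2 and the other at 127, 167, 187, 203 and 142, with pool 4 highest and pool 1 lowest in both. For *CG17377*, like *exu* in the group with the testis genes, the brighter stood at 45.7, 128, 109, 173 and 71.9. Its other probe set read 96.4, 90.6, 104, 122 and 89.1, with pool 4 highest and pool 5 lowest. The second probe set was variable in neither *exu* nor *CG17377*. *Meltrin* was the exception for the highest pool, at 154, 171, 59.1, 59.5 and 89.2 with the brighter probe set and 87.8, 93.6, 78.6, 71.6 and 98.8 with the other.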

How the data were processed

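RNA of 5 pools of 10 whole Canton-S larvae was hybridised to Affymetrix Drosophila Genome 2.0 arrays, 1 array per pool. The authors read the images with Affymetrix Expression Console 1.2. Their deposited values are linear intensities, summarised by PLIER in Affymetrix Power Tools after quantile normalization and with an adjustment for mismatch probes. Columns of the other stock and food were not used.

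Intensities were analysed as log2(intensity + 16) in Python 3.11.15 with numpy 2.4.6, scipy 1.17.1 and pandas 2.3.3. Control probe sets were left out, and no file column was without a sample. Genes were named by the platform's annotation with symbols brought up to those of Release 6, which gave 13647 probe sets 1 gene, 402 several and 4720 no name here. Lists and groups used the brightest probe set of a gene. A ratio of the highest to the lowest pool takes a lowest value under 16 as 16 and is then a lower bound. The scripts were tested on simulated data. As there is 1 group, no test was made and no p-value is given; the spread is that between pools, and the number of arrays limits its precision.

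The pools, the 42 lists and the rules were chosen with earlier results of these data known, and 2 lists were added after the values were seen. From the lists, 7 genes that an older synonym or a pattern had matched by mistake were left out. The rule for named genes took the 25 genes of the brightest probe sets, the 40 most and 10 least variable, up to 3 members of each list with the largest SD and up to 8 members nearest to the mean of each group; other genes in the text were chosen after their values were seen. Alternatives were offsets of 1 and 64, no filter, a 4 times higher limit on the mean, a second quantile normalization, scaling to 1 median, heights of 0.1 and 0.4, and leaving out each pool.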

Additional observations from a re-analysis of the deposited data

Results flagged for a closer look

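Each pool's value was set against the other 4, and a gene is given here where the gap between the highest or lowest pool and its nearest neighbour took more than 0.71 of the gene's whole range (Dixon's 95% value for 5 samples). Chance gives about 1 such case in 20 groups, and 3.54% of all probe sets kept and 7.93% of the variable ones were past it. Of the 142 genes named in the report, 15 were, and 6 gene lists tested alike gave none. The causes were not tested.

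Pool 2 stood high in *PPO3* (gap 0.953 of the range), *TotE* (0.865), *BomS4* (0.794), *spz* (0.756) and *BomT2* (0.711). Their values in pool 2 were 1667, 1694, 422, 449 and 588. In *spz* the difference was small, since the other pools lay between 333 and 358. Pool 2 stood low in *Galphaq* (0.838). 2 dimmer probe sets of *Galphaq*, with mean intensities of 32.9 and 20.6, were not lowest in pool 2.

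Pool 5 stood high in *NimC2* (0.927), *lin-28* (0.875), *CG33333* (0.825) and *apn* (0.769), and low in *SuUR* (0.794). Pool 4 stood low in *Sgs3* (0.740), where it read 145, and high in *Mtk* (0.873), where it read 96.4. Pool 1 stood high in *GstE1* (0.857), at 301, and low in *AttD* (0.775), at 55.9.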

How the results depend on the processing

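No paired analysis was possible because the report holds 1 group of pools. Variable probe sets numbered 328, and 647 with no filter on the mean, 138 with a limit on the mean 4 times higher, and between 230 (without pool 4) and 317 with 1 pool left out. Genes in groups numbered 213, and 445 with no filter, 95 under the higher limit, and between 161 and 240 with 1 pool left out. The filters change how many probe sets enter; for the other settings the cause was not tested. The mean of the glue list spanned 3.13 log2 units, and between 1.07 (without pool 4) and 3.13 with 1 pool left out. That of the antimicrobial peptides spanned 3.40, and between 1.74 (without pool 2) and 3.40. That of the Turandot genes spanned 2.63, and between 0.17 (without pool 2) and 2.63, and 4.18 for the 1 gene under that higher limit, *TotE*. That of the fat body storage list (*Fbp1*, *Fbp2* and *Lsp2*) spanned 2.50, 3.81 with an offset of 1, and between 1.50 and 2.50 with 1 pool left out. That of the Tweedle genes spanned 0.75, 0.43 with no filter, and between 0.52 and 0.75. That of the testis genes spanned 1.27, 0.71 with no filter, and between 0.91 and 1.27. Antimicrobial peptide genes in 1 group numbered 3 without pool 2 and 3 at a height of 0.1, in place of 6. Testis genes in 1 group numbered 6 with an offset of 64, in place of 11, and none was kept under the higher limit. Of the 25 brightest probe sets, 24 or 25 were shared with 1 pool left out and 22 by the median intensity. Of the 50 most variable, 35 were shared by the median absolute deviation. The other offsets, scalings and heights kept these counts and spans within 1.5 times or within 1 SD. With both scalings, 10 of 20 lists and groups kept their highest and lowest pool; the others exchanged pools that lay close together, and the glue, storage, testis, Tweedle and Turandot lists were among those kept. With 5 pools the SD of a gene is itself known only roughly, and dim genes such as the testis set lie near the filter.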
